A study of Mus musculus with 12 samples.

Results

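The genes described here are the 7 enzyme genes of the pentose phosphate pathway, *G6pdx*, *Pgls*, *Pgd*, *Rpia*, *Rpe*, *Tkt* and *Taldo1*, together with *H6pd* and *Idh1*. They are named for the reactions they catalyse, and no measured value enters the rule. All 9 were found among the 16346 genes of the liver RNA-seq table, and all 9 were among the 12366 genes whose mean normalized count reached 10, which is the set that was tested.

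The pentose phosphate pathway branches from glycolysis at glucose 6-phosphate. Its oxidative branch yields NADPH, the reductant of fatty acid and sterol synthesis and of glutathione recycling, and its non-oxidative branch converts pentose phosphates to glycolytic sugars and back. In liver, oxidative branch enzymes are known to rise on refeeding with carbohydrate alongside the lipogenic enzymes. Cytosolic isocitrate dehydrogenase, encoded by *Idh1*, is another source of cytosolic NADPH, while hexose 6-phosphate dehydrogenase, encoded by *H6pd*, makes NADPH inside the endoplasmic reticulum.

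Livers came from 12-week-old C57BL6J mice of the control genotype *Med13*fl/fl, or from MED13-LKO mice, in which a Cre recombinase under the albumin promoter recombines the floxed *Med13* gene in hepatocytes, so that the other liver cell types keep the gene. Mice had either been fasted for 16 h, or had been fed for 4 h with normal chow plus water holding 30% sucrose or 30% fructose, after the same training to overnight fasts. The fed mice were killed later in the day than the fasted ones, so that feeding and hour of day cannot be told apart. Each of the 6 groups held 2 mice and each mouse gave 1 library. No sample on chow with plain water was analysed here.

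Each library rested on an estimated 15980000 to 24130000 reads counted on genes. The deposited normalized counts summed to between 21060000 and 24150000 for control mice and between 17310000 and 18740000 for mice labelled MED13-LKO, without overlap. *Med13* RNA did not mark the genotype, since its normalized counts ran from 578 to 796 in control mice and from 646 to 1055 in mice labelled MED13-LKO, and this does not check the deletion where transcripts without the floxed part are still counted. Hepatocyte markers were the most abundant of the cell type lists in every group, at summed levels between 2272380 and 3001800 in control libraries and between 1686830 and 2079520 in the others. Over the 3 diets, 5 of the 6 hepatocyte markers and 7 of the 8 male-biased liver genes were lower in the libraries labelled MED13-LKO, and 2 of the 8 Kupffer cell and macrophage markers and 3 of the 6 sinusoidal endothelial markers were higher, where 25.3% of all genes were called. Female-biased liver genes went the other way from the male-biased ones, summing to between 39.3 and 217 normalized counts in control libraries and between 2618 and 6840 in the others. Y-linked genes were present in every library, summing to between 3031 and 3547 in control libraries and between 3253 and 3692 in the others. *Xist*, the X-inactivation gene, was not in the table. With libraries scaled to equal sums of normalized counts, 2 of the 6 hepatocyte markers and 7 of the 8 male-biased genes were lower, and all 8 Kupffer cell and all 6 endothelial markers were higher. On that scale 7514 of the 12366 genes tested were called, and the median of all genes moved up by 0.315 on the log2 scale.

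Levels can be compared between genes only per length, and are given here as mean normalized count per kilobase of the longest coding transcript in fasted control liver. *Idh1* stood highest at 4941 per kilobase, followed by *H6pd* at 1552, *Taldo1* at 1299 and *Pgls* at 797. *Rpe* at 266, *Pgd* at 229.9 and *Tkt* at 210.2 formed a middle group. *G6pdx*, which encodes the enzyme of the committed first step, and *Rpia*, which encodes ribose 5-phosphate isomerase, were the least abundant, at 33.3 and 26.5 per kilobase. The low genes were also the ones that varied. Between the lowest and the highest of the 12 libraries the normalized count differed 10.01-fold for *Rpia*, 4.52-fold for *Pgd*, 2.40-fold for *Tkt* and 2.09-fold for *G6pdx*, but 1.67-fold for *H6pd* and at most 1.43-fold for *Idh1*, *Pgls*, *Taldo1* and *Rpe*. Counting error at this depth, taken as the coefficient of variation of the estimated reads, was 5.22% to 18.0% for *Rpia* and 7.52% to 12.2% for *G6pdx*, and at most 5.03% for the other 7 genes.

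**Figure D1:**
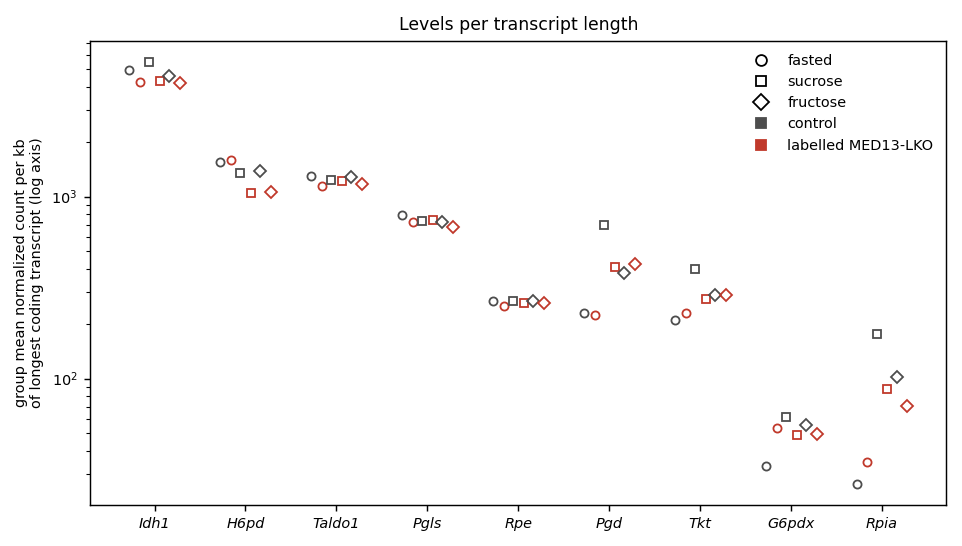
Group means of normalized counts per kilobase of the longest coding transcript (log axis) for the 9 genes, with symbols for diet and colours for genotype. In fasted control liver the genes run from 4941 for *Idh1* to 26.5 for *Rpia*, and the symbols lie farthest apart for *Rpia* and *Pgd*.

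Estimated counts can be shared between genes that have sequence in common. Of the 31-base subsequences of the *G6pdx* transcripts 23.6% also occurred in another gene, 12.6% in the retrogene *G6pd2*, which was not in the table, and 11.8% in the overlapping gene *Ikbkg*. The share was 19.5% for *Pgls* (all with the neighbouring *Fam129c*), 16.4% for *Rpe* (with *Kansl1l*) and 13.97% for *Taldo1* (mostly with the pseudogene *Gm17823*). It was 6.41% for *Rpia*, 1.83% for *Pgd*, 0.229% for *Tkt* and 0 for *H6pd* and *Idh1*. How estimated counts were split over these shared stretches was not tested.

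The first question was how the genes responded to refeeding with sugar. In control liver, sucrose raised 4 of the 9 genes (*Rpia*, *Pgd*, *Tkt* and *G6pdx*) and lowered none, where 8.57% of all genes tested were called in either direction and 4.85% were called higher. These calls, and all others, are from limma with a Benjamini-Hochberg adjusted p under 0.05 over all genes tested. With fructose in control liver, *Rpia* was the 1 gene called, against 5.6% of all genes. In the libraries labelled MED13-LKO, sucrose raised *Rpia* and lowered *H6pd*, against 5.71% of all genes called, and fructose lowered *H6pd*, against 6.53%. With both sugars and both genotypes pooled, *Rpia*, *Pgd* and *Tkt* were called higher and *H6pd* lower in the fed state, against 21.8% of all genes. In those 3 genes that rose, every one of the 8 fed mice lay above every one of the 4 fasted mice, which held for 4.01% of all genes. The 4 feeding comparisons share their fasted libraries within each genotype. As in any bulk tissue, fewer cells of a type and less RNA per cell cannot be told apart. In that pooled comparison 4 of the 5 erythroid markers (median of the 5 −0.55 on the log2 scale), 2 of the 6 sinusoidal endothelial and 2 of the 6 hepatocyte markers were lower in the fed state, and their part in the feeding differences was not tested. The erythroid markers summed to between 10096 and 14896 normalized counts in the fasted mice and between 5734 and 12276 in the fed ones, with all 5 present.

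**Figure D2:**
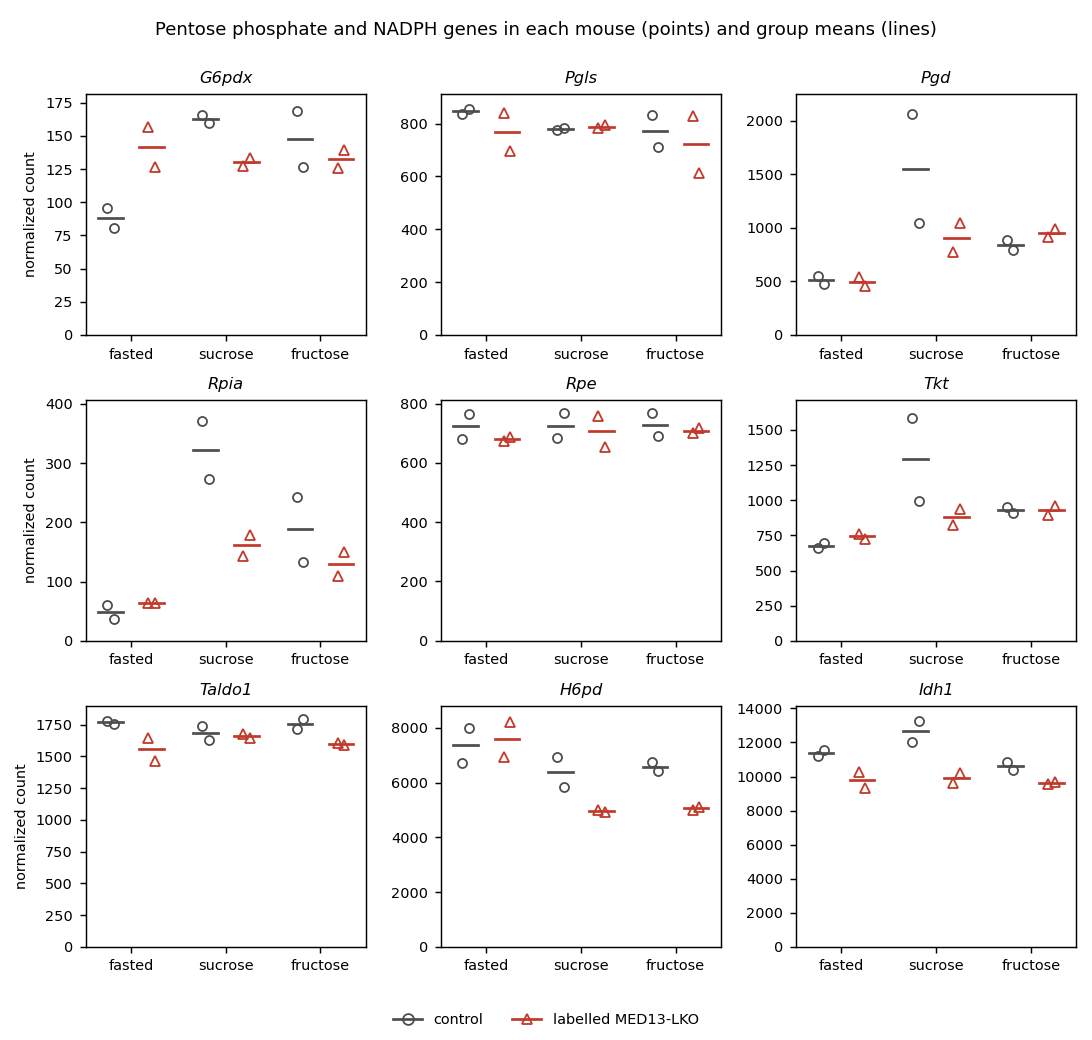
Normalized counts of the 9 genes by diet, with a point for each mouse, a line at each group mean and every axis from 0. *Rpia*, *Pgd* and *Tkt* lie higher in all 8 fed mice than in the 4 fasted mice, *Rpe* and *Taldo1* are nearly level, and control sucrose mouse 1 stands highest for *Rpia*, *Pgd* and *Tkt*.

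The promoter sequences of the 4 genes that rose with sucrose in control liver are shown because these genes rose in the same comparison. They are RefSeq sequences on GRCm38.p6, read on the strand of the gene, and for *Rpia*, *Pgd* and *Tkt* only stretches of the 250 bases before the start that lie outside annotated exons are given. The *Tkt* stretch precedes a start inside the annotated span of the gene, so it is not sequence upstream of the whole gene.
*Rpia*, chr6:70792233-70792425, minus strand: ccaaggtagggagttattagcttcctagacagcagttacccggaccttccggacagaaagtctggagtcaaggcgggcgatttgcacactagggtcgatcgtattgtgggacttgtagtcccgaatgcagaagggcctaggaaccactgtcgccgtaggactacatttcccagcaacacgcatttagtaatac
*Pgd*, chr4:149166772-149166955, minus strand: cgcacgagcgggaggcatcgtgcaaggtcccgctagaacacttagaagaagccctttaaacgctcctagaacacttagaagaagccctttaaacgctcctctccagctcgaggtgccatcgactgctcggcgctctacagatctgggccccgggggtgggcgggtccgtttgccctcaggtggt
*Tkt*, chr14:30548881-30549001, plus strand: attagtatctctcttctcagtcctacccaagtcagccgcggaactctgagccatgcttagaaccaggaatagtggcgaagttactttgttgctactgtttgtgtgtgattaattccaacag
*G6pdx*, chrX:74428919-74428948, minus strand: gaggcgggtcaGCTCAGTCAaagcacacgc
For *G6pdx* the 30 bases around the 1 motif found are given, with its letters in capitals, and all 250 bases before this start lie inside an annotated exon of *G6pdx*. Motifs were sought on both strands of the windows from 250 bases before to 50 bases after the start, 11 windows for the 9 genes. The windows of *G6pdx*, *Tkt* and *H6pd* and the second ones of *Pgd* and *Idh1* lie inside the annotated span of their genes. The E-box CACGTG was in none of the 11 and in 7.15% of 32851 windows genome-wide. The carbohydrate response element, sought only as an exact pair of these E-boxes 5 bases apart, was in none of the 11 and in none of all windows. That search could therefore not set the 9 genes apart, and it does not show whether they hold looser forms of the element. The sterol regulatory element TCACNCCAC was in none of the 11 and in 1.242% of all. The antioxidant response element TGACNNNGC was in 2 of the 11, those of *G6pdx* and of the second *Pgd* window, and in 12.4% of all. These searches are descriptions of letters, and the factors' binding was not measured.

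*G6pdx*, which encodes cytosolic glucose 6-phosphate dehydrogenase, lies on the X chromosome of GRCm38 (chrX:74409483-74429194). Fasted control mice had 95.9 and 80.6 normalized counts, sucrose-fed ones 165 and 159.5, and fructose-fed ones 169 and 126. The MED13-LKO label came with 156 and 126 in fasted, 128 and 134 in sucrose-fed, and 125 and 139 in fructose-fed mice. The 2 fasted control mice were the lowest of the 12, and the other 10 mice lay between 125 and 169 with no gap between diets. Sucrose raised *G6pdx* in control liver by 0.88 on the log2 scale (SE 0.187, limma adjusted p = 0.0196), which is 1.84-fold. This call did not hold in every setting, since leaving out control fasted mouse 2 gave an adjusted p of 0.13, leaving out control sucrose mouse 1 or 2 gave 0.105 or 0.0728, and fitting only the compared groups gave 0.0607 (all limma). With fructose the difference was 0.72 (SE 0.187, limma adjusted p = 0.0532), which did not pass. Under the MED13-LKO label the differences were −0.10 with sucrose (95% interval −0.52 to 0.31) and −0.09 with fructose (−0.50 to 0.33), neither of which passed.

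The genotypes lay apart in the fasted state, where *G6pdx* was 0.67 higher on the log2 scale in the libraries labelled MED13-LKO (95% interval 0.25 to 1.09, limma adjusted p = 0.0535). The value missed the threshold. It passed when control fructose mouse 1 or 2 was left out (limma adjusted p = 0.0351 or 0.0341) and when libraries were scaled to equal sums (1.01, limma adjusted p = 0.00427). The sucrose response was 0.98 smaller in the libraries labelled MED13-LKO than in control (interval −1.57 to −0.39), and the fructose response 0.81 smaller (interval −1.40 to −0.22). The limma interaction tests gave 0.00397 and 0.0119 unadjusted and, over all genes, adjusted p values of 0.341 and 0.43. Among the 9 genes, 0 were called for either interaction, against 0.146% of all genes with sucrose and 0.0243% with fructose, while 4 and 2 of the 9 had an unadjusted limma p under 0.05. Here and below, no share of all genes is set beside counts at an unadjusted p under 0.05. Such counts are therefore not a result about these genes.

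*Pgls* (chr8:71592176-71601092) encodes the lactonase of the second oxidative step. Control mice held 835 and 857 normalized counts before feeding, 776 and 785 after sucrose, and 835 and 712 after fructose. Mice labelled MED13-LKO held 840.4 and 697 before feeding, 782 and 795 after sucrose, and 830.3 and 614 after fructose. No group stood apart from all the others, and the 2 fructose-fed mice labelled MED13-LKO differed most from each other. Both fasted control mice lay above all fed control mice. With fructose this held in that direction for 26.5% of all genes, and no share is given here for sucrose. Its feeding differences ran from −0.13 to 0.04 on the log2 scale, and the one with sucrose in control liver was −0.12 (95% interval −0.44 to 0.21).

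*Pgd* (chr4:149149991-149166771) encodes 6-phosphogluconate dehydrogenase, the second NADPH-yielding step of the pathway. Its normalized counts went from 546 and 475 in fasted control mice to 2060.0 and 1042 in sucrose-fed and 887 and 791 in fructose-fed ones. Under the MED13-LKO label they went from 537 and 455 to 769 and 1047 and to 909.5 and 988. The 4 fasted mice lay at or under 546 and the 8 fed mice at or above 769, and the sucrose-fed control mice differed from each other about as much as the diets did. In the fed state *Pgd* was 1.01 higher on the log2 scale over both genotypes (SE 0.162, limma adjusted p = 0.00221), or 2.01-fold. Within groups the rise passed for sucrose in control liver, at 1.52 (SE 0.265, limma adjusted p = 0.00786), and there it was lost without control fasted mouse 2 (1.42, limma adjusted p = 0.0684) and when only the compared groups were fitted (0.0519). The other 3 rises were 0.72, 0.86 and 0.94 for fructose in control, sucrose in MED13-LKO and fructose in MED13-LKO libraries, with limma adjusted p values of 0.142, 0.0931 and 0.0641. Without control sucrose mouse 2, whose partner is the highest library for *Pgd*, these gave adjusted p values of 0.0382, 0.0184 and 0.0149 in limma. Without mouse 1 in its place they gave 0.0385, 0.0188 and 0.0151.

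Between genotypes, *Pgd* was 0.71 lower with sucrose in the libraries labelled MED13-LKO (interval −1.30 to −0.12, limma adjusted p = 0.159), and the mice overlapped. That difference rested on control sucrose mouse 1, since it was −1.20 (limma adjusted p = 0.0161) with mouse 1 as the only one left. *Pgd* was −0.04 apart when fasted (interval −0.63 to 0.55) and 0.18 apart with fructose (−0.41 to 0.77).

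*Rpia* (chr6:70765720-70792232) encodes the isomerase that makes ribose 5-phosphate, the precursor of nucleotides. Fasted control mice had 59.95 and 37.0 normalized counts, against 370.5 and 272 after sucrose and 244 and 132 after fructose. Fasted mice labelled MED13-LKO had 63.5 and 63.9, against 144 and 179 after sucrose and 109.8 and 149.9 after fructose. The 4 fasted mice lay at or under 63.9, every fed mouse lay at or above 109.8, and both sucrose-fed control mice were above the other 10 mice. *Rpia* had the largest feeding difference of the 9 genes in each of these comparisons. It was 6.62-fold higher with sucrose in control liver (log2 difference 2.73, SE 0.323, limma adjusted p = 0.00105) and 3.75-fold higher with fructose (1.91, SE 0.323, limma adjusted p = 0.0107). Under the MED13-LKO label it was 2.49-fold higher with sucrose (1.32, SE 0.323, limma adjusted p = 0.043) and 1.998-fold higher with fructose (0.999, SE 0.323, limma adjusted p = 0.0971, not passing). Over both genotypes the fed state was 1.74 higher (SE 0.198, limma adjusted p = 0.000339).

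The *Rpia* call for sucrose in control liver held in every alternative that was run. With fructose in control it was lost without control fasted mouse 2 (limma adjusted p = 0.0909), without control fructose mouse 1 (0.0561) and when only the compared groups were fitted (0.154). With sucrose in the libraries labelled MED13-LKO it was lost in 11 of the 20 alternatives, among them without either fasted (limma adjusted p = 0.148 and 0.176) or either sucrose mouse of that genotype (0.118 and 0.242). The sucrose response was 1.41 smaller in those libraries (interval −2.43 to −0.39), with a limma adjusted p of 0.436 (0.0116 unadjusted). With sucrose, the genotypes differed by −0.98 (interval −1.70 to −0.26, limma adjusted p = 0.114), with both mice labelled MED13-LKO below both controls.

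*Rpe* (chr1:66700831-66719805) encodes the epimerase that feeds xylulose 5-phosphate to the transketolase. It varied least of the 9 genes, between 654 and 768 normalized counts in the 12 libraries, with 680.5 and 765 in fasted, 683 and 767 in sucrose-fed and 768 and 689 in fructose-fed control mice. Their counterparts labelled MED13-LKO had 674 and 686, then 759 and 654, then 700.3 and 717. All 6 groups overlapped a neighbour in the order of their means. The sucrose difference in control liver was 0.00 (95% interval −0.24 to 0.25).

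*Tkt* (chr14:30548359-30574720) encodes transketolase, which moves 2-carbon units between the sugars of the non-oxidative branch. Normalized counts of 661 and 694 were found in fasted, 1586 and 995 in sucrose-fed, and 953 and 910.0 in fructose-fed control mice. For mice labelled MED13-LKO these were 759.6 and 727 before feeding, 821 and 936 after sucrose, and 897 and 958 after fructose. The fasted mice were the 4 lowest, and the 2 sucrose-fed control mice the highest. *Tkt* rose by 0.48 on the log2 scale with feeding over both genotypes (SE 0.107, limma adjusted p = 0.0118), or 1.39-fold. It rose by 0.89 with sucrose in control liver (SE 0.175, limma adjusted p = 0.0138), which was lost without control fasted mouse 1 or 2 (0.0737 or 0.0747) and when only the compared groups were fitted (0.0812). The rises of 0.46 with fructose in control, 0.24 with sucrose in MED13-LKO and 0.32 with fructose in MED13-LKO libraries did not pass (limma adjusted p = 0.152, 0.49 and 0.308).

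Control sucrose mouse 1 also weighed on *Tkt*. The difference between genotypes with sucrose was −0.52 (interval −0.91 to −0.13, limma adjusted p = 0.122) and the smaller sucrose response in the libraries labelled MED13-LKO was −0.65 (interval −1.20 to −0.10, limma adjusted p = 0.515). When control sucrose mouse 2 was left out, so that mouse 1 alone stood for its group, they became −0.85 (limma adjusted p = 0.00643) and −0.99 (0.0443). That 1 library was the highest of the 12 for *Pgd*, *Tkt* and *Rpia*, and also for *Fasn* and *Me1*.

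*Taldo1* (chr7:141392199-141402968) encodes transaldolase. Control mice held 1779 and 1759.9 normalized counts before feeding, 1743 and 1633 after sucrose, and 1713 and 1792 after fructose. Mice labelled MED13-LKO held 1646 and 1466, then 1679 and 1645, then 1607 and 1588. The genotypes overlapped through the sucrose-fed control mice, and no diet stood apart. Its feeding differences ran from −0.07 to 0.10 on the log2 scale. The difference between genotypes over the diets was −0.11 (interval −0.22 to −0.01, limma adjusted p = 0.0953), which did not pass, and 0.20 when libraries were scaled to equal sums.

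**Figure D3:**
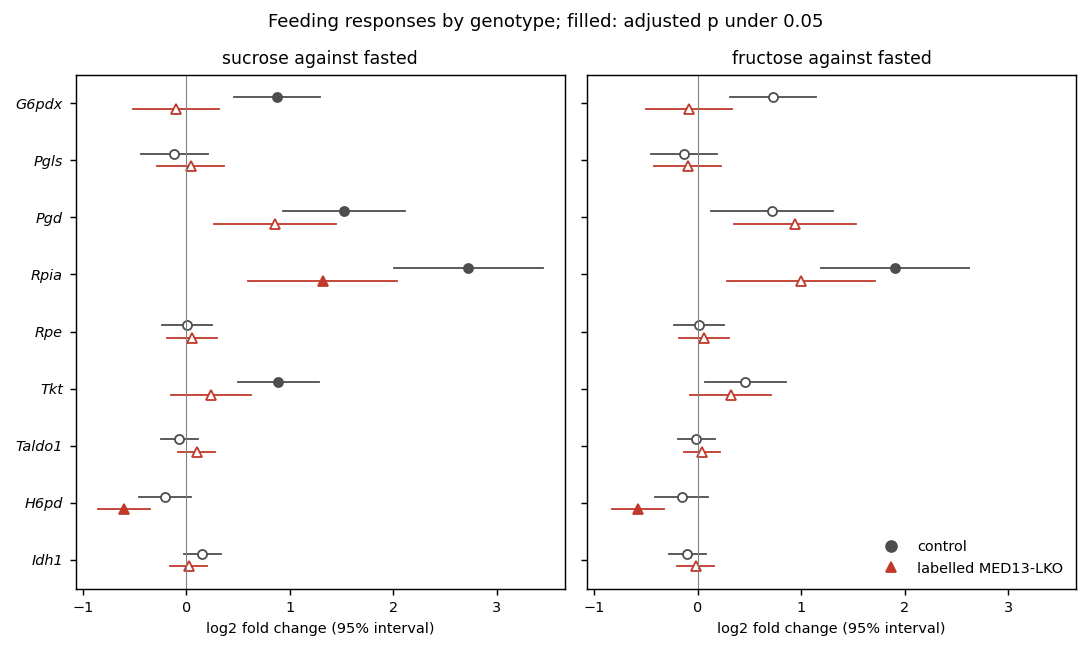
Log2 fold change of each gene with sucrose (left) or fructose (right) against the fasted state, with 95% intervals from limma, for control (circles) and libraries labelled MED13-LKO (triangles), filled where the adjusted p was under 0.05. *Rpia* lies farthest to the right in both panels (2.73 with sucrose in control), and *H6pd* lies left of 0, at −0.60 and −0.58 in the libraries labelled MED13-LKO.

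*H6pd* (chr4:149979475-150009023) moved the other way. Fasted control mice had 6728 and 8004 normalized counts, sucrose-fed ones 6923 and 5836, and fructose-fed ones 6744 and 6427. Fasted mice labelled MED13-LKO had 6940.2 and 8221, sucrose-fed ones 5008 and 4935, and fructose-fed ones 5017 and 5100.1. The 4 fed mice labelled MED13-LKO were the lowest of the 12 and lay close together, while fed and fasted control mice overlapped. With that label *H6pd* fell by 0.60 on the log2 scale with sucrose (SE 0.114, limma adjusted p = 0.0151) and by 0.58 with fructose (SE 0.114, limma adjusted p = 0.0191). Both calls were lost without MED13-LKO fasted mouse 2 (limma adjusted p = 0.119 and 0.131), and each was lost without either fed mouse of its own group (0.0814 and 0.112 with sucrose, 0.0613 and 0.128 with fructose). In control liver the differences were −0.21 (interval −0.46 to 0.05) and −0.16 (−0.41 to 0.10), which did not pass. The responses were 0.40 and 0.42 more negative in the libraries labelled MED13-LKO than in control, with limma adjusted p values of 0.547 and 0.469 (0.0342 and 0.026 unadjusted). Over both genotypes the fed state was lower by 0.39 (SE 0.07, limma adjusted p = 0.00399), although the fed and fasted mice overlapped.

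The second question was how the genes differed between genotypes at a given diet. Few of the 9 were called. There were 0 calls in the fasted state, against 8.98% of all genes, with 3 of the 9 at an unadjusted limma p under 0.05. With sucrose, *Idh1* was called lower, against 6.03% of all genes, with 5 of the 9 at an unadjusted limma p under 0.05, and with fructose 0 were called, against 7.69%, with 1 at an unadjusted p under 0.05. The percentages are for adjusted calls, and the unadjusted counts stand without a share of all genes. When fasted, both mice labelled MED13-LKO lay above both control mice for *G6pdx*, *Rpia* and *Tkt*, as for 28.9% of all genes, and below them for *Taldo1* and *Idh1*, as for 28.1% of all genes, and with sucrose they lay below for those 3 genes, *H6pd* and *Idh1*, as for 27.2%. Averaged over the diets, *Idh1* and *H6pd* were called lower, against 25.3% of all genes called, so that 2 of 9 is near the share of all genes.

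*Idh1* (chr1:65158616-65186500) had 11212 and 11535 normalized counts in fasted, 12020.1 and 13276 in sucrose-fed and 10856 and 10359.7 in fructose-fed control mice. Under the MED13-LKO label it had 10260.5 and 9309.7 before feeding, 9605 and 10219 after sucrose, and 9589 and 9654 after fructose. All 6 mice labelled MED13-LKO lay below all 6 control mice, which held in this direction for 4.93% of all genes. The difference over the diets was −0.24 on the log2 scale (SE 0.0465, 95% interval −0.34 to −0.13, limma adjusted p = 0.0051), or 0.849-fold, but it was 0.08 (limma adjusted p = 0.115) when libraries were scaled to equal sums of normalized counts. With sucrose the difference was −0.35 (SE 0.0806, limma adjusted p = 0.0324), and it was −0.07 (0.52) with equal sums. That call was also lost without either sucrose-fed mouse labelled MED13-LKO (limma adjusted p = 0.217 and 0.0941), without control sucrose mouse 1 or 2 (0.0503 and 0.178) and without control fasted mouse 1 or 2 (0.0575 and 0.0577). In the fasted state the difference was −0.22 (interval −0.40 to −0.04, limma adjusted p = 0.122), and with fructose −0.14 (−0.32 to 0.04). No feeding response of *Idh1* passed as deposited, although the one with sucrose in control, at 0.15, was 0.28 with equal sums (limma adjusted p = 0.0348), and in control mice both sucrose-fed mice lay above and both fructose-fed mice below the fasted ones, which held in these directions for 27% and 26.5% of all genes.

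For *H6pd* the difference over the diets was −0.23 (SE 0.066, interval −0.38 to −0.08, limma adjusted p = 0.0285), and 0.09 when libraries were scaled to equal sums, so its direction turned with the scaling. The call was lost when any 1 of 8 libraries was left out, with limma adjusted p values between 0.0558 and 0.0777, those of control fasted mouse 2, control sucrose mouse 1, control fructose mouse 1, MED13-LKO fasted mouse 1 and all 4 fed mice labelled MED13-LKO. By diet it was 0.04 when fasted (interval −0.21 to 0.30), −0.35 with sucrose (−0.61 to −0.10, limma adjusted p = 0.107) and −0.38 with fructose (−0.63 to −0.13, limma adjusted p = 0.0751).

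Scaling to equal sums moved the median of all genes by 0.341 in the fasted comparison of genotypes, 0.284 with sucrose, 0.32 with fructose and 0.315 over the diets, and by 0.0688 to 0.126 in the feeding comparisons. With it, the calls over the diets went from 0 higher and 2 lower to 4 higher and 0 lower (*G6pdx*, *Pgls*, *Rpe* and *Taldo1* higher). Relative to the median of all genes, *Idh1* and *H6pd* were low on either scale. Scaling a library moves nearly all its genes alike, so this had to follow and is no separate support. The share of the 100 highest genes was 49.3% to 53.5% in control libraries and 44.7% to 46.4% in the others. The markers of hepatocytes fell along with *Idh1*, and their part in its lower level was not tested.

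**Figure D4:**
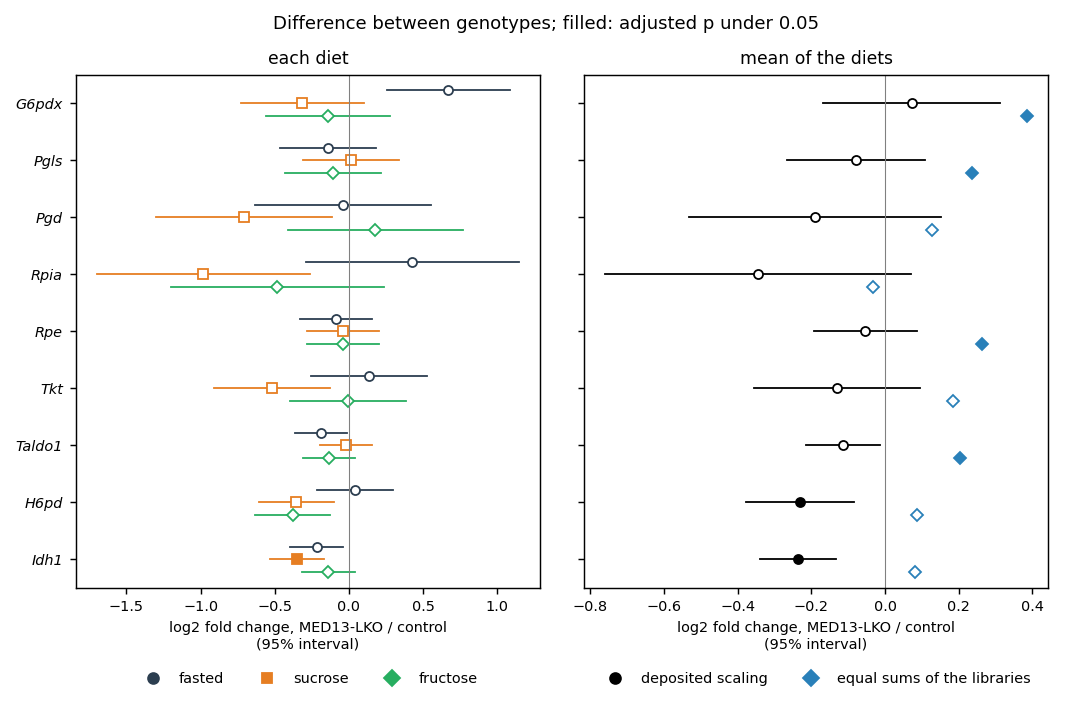
Log2 fold change between genotypes, MED13-LKO over control, for each diet (left) and over the diets (right), with 95% intervals from limma, filled where the adjusted p was under 0.05, and with blue diamonds for libraries scaled to equal sums. *Idh1* and *H6pd* lie at −0.24 and −0.23 over the diets as deposited and at 0.08 and 0.09 with equal sums.

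The sugars were also set against each other. In control liver 0 of the 9 genes were called between fructose and sucrose, against 0.0404% of all genes, with 4 of the 9 at an unadjusted limma p under 0.05, and the same share of all genes was called in the libraries labelled MED13-LKO, where 0 of the 9 were called and 0 had such a p. No share of all genes at the unadjusted cutoff is given for either genotype. In control mice *Pgd* was 0.81 lower with fructose than with sucrose (interval −1.40 to −0.21), *Rpia* 0.82 lower (−1.54 to −0.10), *Tkt* 0.43 lower (−0.82 to −0.04) and *Idh1* 0.25 lower (−0.43 to −0.07), with limma adjusted p values of 0.468, 0.514, 0.527 and 0.452. For each of these 4 genes both fructose-fed mice lay below both sucrose-fed mice, which held in this direction for 17.5% of all genes. In the libraries labelled MED13-LKO the same differences were 0.08, −0.32, 0.08 and −0.04.

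The genes whose log2 values ran most like those of each of the 9 across the 12 libraries are given as a description, since all libraries share the differences between diets and genotypes. *Pgd* and *Tkt* ran with each other (Pearson r = 0.960, Spearman rho = 0.881) and both ran with *Gpi1*, which encodes glucose 6-phosphate isomerase (r = 0.953 and 0.948), and *Pgd* also with *Gopc* (0.959). *Rpia* ran with *Aacs*, encoding acetoacetyl-CoA synthetase (r = 0.981, rho = 0.951), *Fzd7* (0.963) and *Sept9* (0.962), and *Tkt* also with *Fzd7* (0.933). For *G6pdx* the nearest were *Acacb*, encoding acetyl-CoA carboxylase 2 (r = 0.896, rho = 0.776), *Pik3r1* (0.875) and *Ewsr1* (0.873). Among the 9 genes, *Rpia* correlated with *Pgd* at 0.909, with *Tkt* at 0.875 and with *G6pdx* at 0.781, whereas *Rpe* stayed within 0.322 of 0 with every other member. *Fasn* ran with *Pgd* at 0.949, with *Rpia* at 0.945 and with *Tkt* at 0.876, but with *G6pdx* at 0.605.

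For the other 5 genes the nearest patterns lay outside this set. *H6pd* ran most like *Eef2* (r = 0.945, rho = 0.916), *Pabpc1* (0.935) and *Atrnl1* (0.933). *Idh1* ran most like *Xkr9* (r = 0.946, rho = 0.881), *Lactb2* (0.936) and *Tmem14a* (0.926), all of which lie on chromosome 1, as *Idh1* does, though at positions 13668771, 13623330 and 21218575. *Taldo1* ran with *Lamtor2* (0.934), *Acat3* (0.932) and *Vps53* (0.894), *Pgls* with *Siae* (0.935), *Mdm4* (0.881) and *Pln* (0.871), and *Rpe* with *Metap2* (0.885), *Ormdl2* (0.788) and *Fdx1l* (0.774).

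Of 14 further genes of pentose and ribose metabolism, 10 were tested, and 0 were called in any feeding comparison. The share of all genes called was 5.6% to 8.57% in the single feeding comparisons and 21.8% with sugars and genotypes pooled. For sucrose in control liver, 3 of the 10 had an unadjusted limma p under 0.05. Over the diets *Prpsap2*, a subunit associated with phosphoribosyl pyrophosphate synthetase, was higher in the libraries labelled MED13-LKO by 0.30 (limma adjusted p = 0.0369), a call kept in 11 of 19 alternatives and lost without any of 8 libraries, at up to 0.101. *Dcxr*, encoding the xylulose reductase, was lower by 0.43 (limma adjusted p = 0.00922). With equal sums the 10 genes went from 1 higher and 1 lower to 8 higher and 0 lower, and *Dcxr* was at −0.11 (limma adjusted p = 0.333). Over all genes 25.3% were called as deposited and 7514 of 12366 with equal sums.

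Genes linked to other routes to NADPH, not all of which encode an enzyme that makes it, differed among themselves. Of 13 such genes, 1 was called higher with sucrose in control liver, against 8.57% of all genes called. Between genotypes over the diets 3 were higher and 3 lower, against 25.3% of all genes. With equal sums 8 were higher and 2 lower, against 7514 of 12366 genes. *Me1*, encoding cytosolic malic enzyme, had 3428 and 3292 normalized counts in fasted, 14994 and 9907 in sucrose-fed and 4976 and 5381 in fructose-fed control mice. Mice labelled MED13-LKO had 2182 and 2323, then 3431 and 4345, then 3113 and 3133. The 2 sucrose-fed control mice stood far above the other 10. *Me1* rose by 1.86 with sucrose in control (limma adjusted p = 0.000391) and by 0.78 in the libraries labelled MED13-LKO (limma adjusted p = 0.0275), the second of which was lost without any of 3 libraries of that genotype, both fasted mice and sucrose mouse 2, at up to 0.205. It was lower between genotypes by 1.66 with sucrose (limma adjusted p = 0.000509) and by 0.99 over the diets (8.97e-05), and both calls held in every alternative. The test of the 2 sucrose responses against each other gave a limma adjusted p of 0.235 (0.0011 unadjusted).

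*Nnt*, which encodes the mitochondrial transhydrogenase and of which the C57BL6J strain is known to carry a deletion, had 575 and 566 normalized counts in fasted, 929.9 and 1004 in sucrose-fed and 529 and 969 in fructose-fed control mice. Mice labelled MED13-LKO had 2952 and 3687, then 3462 and 3233, then 2617 and 3341. The genotypes did not overlap at any diet, and *Nnt* was higher by 2.12 over the diets (SE 0.135, limma adjusted p = 5.69e-06), a call kept in every alternative. Whether both label sets carry the same *Nnt* allele was not tested. In every comparison of genotypes here, a difference in strain background cannot be told apart from the loss of *Med13*. *Aldh1l1*, encoding the cytosolic formyltetrahydrofolate dehydrogenase, had 14788 to 21395 normalized counts in control mice and 10127 to 14592 in the others, without overlap, and was lower by 0.65 over the diets (limma adjusted p = 0.00122; −0.33 and 0.0171 with equal sums). *Mthfd1l* was higher by 0.95 over the diets (limma adjusted p = 0.00692), with the mice overlapping. *Mthfd2*, at 11.0 and 15.6 in sucrose-fed control mice and 51.6 and 32.0 in those labelled MED13-LKO, was higher by 1.56 with sucrose (limma adjusted p = 0.0486), but the call was lost without any 1 of the 8 fasted or sucrose-fed mice, at up to 0.289.

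**Figure D5:**
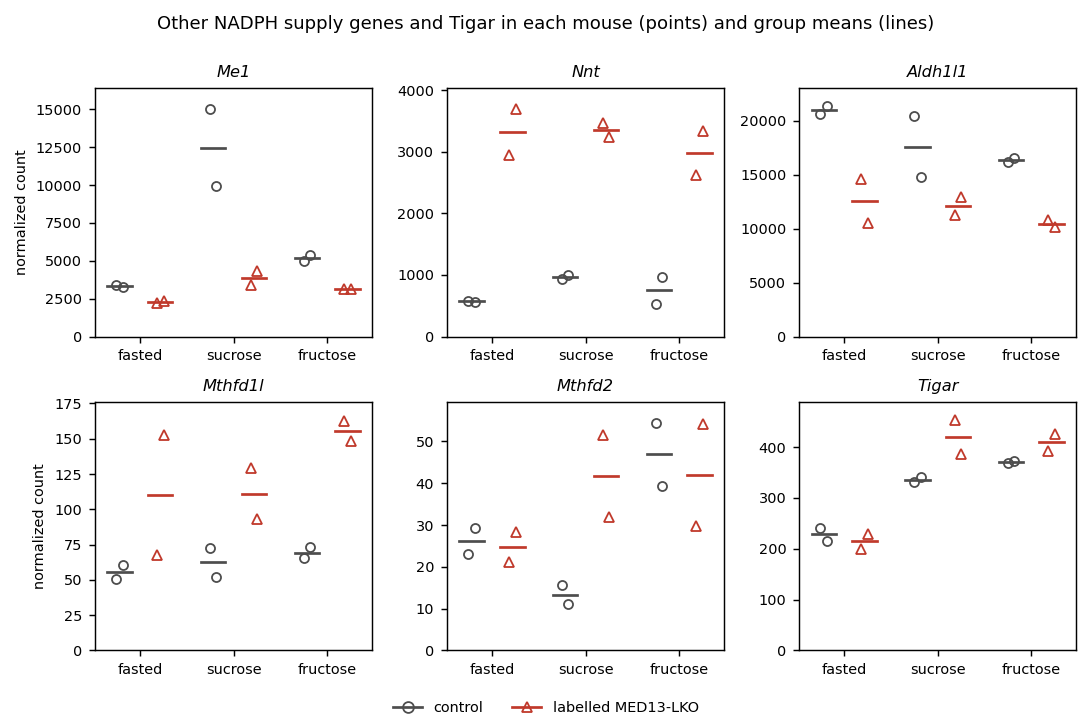
Normalized counts by diet of *Me1*, *Nnt*, *Aldh1l1*, *Mthfd1l*, *Mthfd2* and *Tigar*, with a point for each mouse, a line at each group mean and every axis from 0. *Me1* peaks in the sucrose-fed control mice (14994 and 9907), and *Nnt* lies between 2617 and 3687 in the mice labelled MED13-LKO, above all control mice.

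Among 13 enzyme genes linked to lipid and sterol synthesis, which as pathways use NADPH, 4 were higher and 2 lower in the fed state over both genotypes, against 21.8% of all genes called. *Fasn*, the fatty acid synthase, had 1290.1 and 1085 normalized counts in fasted, 35838 and 19511 in sucrose-fed and 9981 and 8111 in fructose-fed control mice. Mice labelled MED13-LKO had 1050.3 and 699, then 5983 and 12721, then 6768 and 9007. Fed and fasted mice were far apart in both genotypes. It rose by 4.48 and 2.93 in control and by 3.35 and 3.19 in the libraries labelled MED13-LKO, with sucrose and fructose in that order (limma adjusted p at most 0.00305), and *Elovl6*, a fatty acid elongase, rose by 4.06, 2.64, 3.16 and 2.68. *Por*, the reductase that hands electrons from NADPH to cytochromes P450, fell by 0.89 over both genotypes (limma adjusted p = 4.77e-05). Between genotypes with sucrose, 7 of the 13 were lower and 0 higher in the libraries labelled MED13-LKO, against 6.03% of all genes called. With equal sums 4 were lower and 0 higher, against 2242 of 12366 genes. Among the 7 were *Elovl6* at −1.74, *Fasn* at −1.60 and *Sqle*, the squalene epoxidase, at −1.241 (limma adjusted p = 0.0349, 0.0323 and 0.0303). Each of these 3 calls was lost without control sucrose mouse 1 or MED13-LKO sucrose mouse 1, that of *Sqle* also without mouse 2 of either sucrose group and that of *Fasn* without either fasted control mouse, with limma adjusted p values of at most 0.241, 0.22 and 0.203. Over the diets 1 was higher and 9 lower as deposited, against 25.3% of all genes called. With equal sums 2 were higher and 3 lower, against 7514 of 12366 genes, with *Por* turning from −0.27 to 0.05.

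Of 12 redox enzymes and targets of the NRF2 factor, 0 were called with sucrose in control liver (0 at an unadjusted limma p under 0.05), against 8.57% of all genes called. In the libraries labelled MED13-LKO, *Srxn1*, encoding sulfiredoxin, was higher by 1.10 with fructose (limma adjusted p = 0.00222) and by 0.58 over the diets (0.000979). *Blvrb*, a flavin and biliverdin reductase that uses NADPH, was lower by 0.70 and *Cat*, the catalase, by 0.51 over the diets (limma adjusted p = 0.000462 and 0.000654). With equal sums these were −0.39 and −0.19 (limma adjusted p = 0.00493 and 0.0388), and the list went from 1 higher and 2 lower to 4 higher and 2 lower. Neither count is above the share of all genes, 25.3% as deposited and 7514 of 12366 with equal sums.

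*H6pd* draws glucose 6-phosphate that *Slc37a4*, the transporter of the endoplasmic reticulum, brings in, and its NADPH is used by *Hsd11b1*, which regenerates active glucocorticoid. *Slc37a4* had 6409 to 7838 normalized counts in control mice and 4138 to 5506 in the mice labelled MED13-LKO, and *Hsd11b1* had 13858 to 17428 and 10414 to 13034. In neither gene did the genotypes overlap. Over the diets *Slc37a4* was lower by 0.54 (limma adjusted p = 0.000879; −0.23 and 0.0255 with equal sums) and *Hsd11b1* by 0.39 (0.000402; −0.07 and 0.229 with equal sums). *G6pc*, which hydrolyses glucose 6-phosphate in the same compartment, had 7865 and 10424 in fasted control mice and 3077 and 3178 in sucrose-fed ones, and fell by 1.53 with sucrose in control (limma adjusted p = 0.0107), a call lost without control fasted mouse 2 or either sucrose mouse, at up to 0.0912. Over the diets it was higher by 0.51 in the libraries labelled MED13-LKO (limma adjusted p = 0.0477), kept in 7 of 19 alternatives and lost without any of 10 libraries, at up to 0.119. The paper reports, by qRT-PCR, that MED13 deficiency suppressed *G6pc* in fasted and in fructose-fed mice, the other direction from this mean over the diets. Which diet carries the mean is not shown here. Of these 4 genes 1 was higher and 2 lower over the diets as deposited, against 25.3% of all genes called. With equal sums 2 were higher and 1 lower, against 7514 of 12366 genes.

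Of 10 regulators of these pathways, 7 were higher and 0 lower in the fed state over both genotypes, against 21.8% of all genes called. *Srebf1*, the lipogenic transcription factor gene, rose by 1.91 and 1.33 with sucrose and fructose in control and by 1.92 and 1.73 in the libraries labelled MED13-LKO (limma adjusted p = 0.00274, 0.0216, 0.00404 and 0.00716). The fructose calls were lost without control fasted mouse 2 or either control fructose mouse, and without mouse 2 of the fasted or the fructose group labelled MED13-LKO, at up to 0.152 and 0.0735. *Tigar*, encoding a fructose 2,6-bisphosphatase that is known to divert glucose 6-phosphate to the pentose phosphate pathway, had 242 and 216 normalized counts in fasted, 331 and 341 in sucrose-fed and 369 and 372 in fructose-fed control mice. Under the MED13-LKO label it had 200.3 and 228, then 453 and 386, then 391.9 and 426. Every fed mouse lay above every fasted mouse. It rose by 0.79 over both genotypes (SE 0.0759, limma adjusted p = 0.00013), a call kept in every alternative. *Mlx*, the partner of the carbohydrate response factor, rose by 0.48 over both genotypes (limma adjusted p = 0.00149), *Mlxipl*, that factor's gene, by 0.33 (0.0166) and *Keap1*, the NRF2 inhibitor, by 0.34 (0.0154). The *Mlxipl* and *Keap1* calls were lost without control fasted mouse 2, and the first also without MED13-LKO fasted mouse 2 and the second without control or MED13-LKO fasted mouse 1, at up to 0.0821 and 0.0619. Between genotypes over the diets *Srebf1* was lower by 0.60 (limma adjusted p = 0.0188, −0.28 and 0.157 with equal sums), a call lost without MED13-LKO sucrose mouse 1. *Mlxipl* was lower by 0.30 (limma adjusted p = 0.0167, 0.02 and 0.873 with equal sums). The list went from 0 higher and 2 lower as deposited, against 25.3% of all genes, to 8 higher and 0 lower with equal sums, against 7514 of 12366 genes.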

How the data were processed

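Liver RNA was sequenced from 12 mice, 2 in each of 6 groups of genotype and diet taken from the sample titles. The authors trimmed reads with Trim Galore 0.6.5, estimated transcript counts with kallisto 0.46.0 and normalized them with DESeq2 1.24.0 (build mm10, all per the submitters' processing notes), and the signal values they deposited are normalized counts per Ensembl gene. No source says that the mice of a group were littermates or handled apart, so p-values measure the spread between these libraries.

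Symbols came from GENCODE M21 on GRCm38 (16212 identifiers matched, 134 not). Values were tested as log2(normalized count + 1), which understates changes of low genes, for 12366 genes with a mean of at least 10, in 1 limma 3.58.1 model with 6 groups (R 4.3.3, empirical Bayes with a mean trend), adjusted by Benjamini-Hochberg over all genes tested. The authors ran DESeq2 on counts. Count tests were not run here, since transcript-level estimates leave whole reads recoverable in genes with a single transcript alone, where a step per library gave the depth (values within 0.02 of a whole multiple). Fits were tested on simulated data.

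Members and gene lists were chosen with earlier results of these data known. Named from each further list were at most 5 genes with the largest change among those called, of which 1 is not reported here, and for each of the 9 genes the 3 most alike. Sequence sharing used 31-base subsequences. Promoters are RefSeq windows. Alternatives were pseudocounts of 0.1 and 10, no filter, equal 75th percentiles, equal sums, the replicate number as a block, no mean trend, fits of the compared groups and leaving out each library. Python 3.11.15, NumPy 2.4.6, pandas 2.3.3 and matplotlib 3.10.9 were used otherwise.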

Additional observations from a re-analysis of the deposited data

Results flagged for a closer look

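For 3 genes the difference between genotypes pointed in opposite directions in the fasted state and with sucrose, in every mouse of each comparison. *G6pdx* was 0.67 higher on the log2 scale in the fasted mice labelled MED13-LKO and −0.31 apart with sucrose, *Rpia* was at 0.43 and −0.98, and *Tkt* at 0.13 and −0.52. In each case both mice labelled MED13-LKO lay above both control mice when fasted and below both with sucrose. Taken singly, these held for 28.9% and 27.2% of all genes, and the share of all genes with both was not counted. The difference itself, the interaction of genotype and sucrose feeding in limma, gave adjusted p values of 0.341, 0.436 and 0.515, and did not pass.

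*Idh1* in control liver lay 0.15 above the fasted mice with sucrose and −0.10 from them with fructose, with no overlap in either comparison. Taken singly, this held in these directions for 27% and 26.5% of all genes, and the share with both was not counted. Fructose against sucrose gave a limma adjusted p of 0.452 and did not pass. The fasted libraries are shared by both comparisons.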

How the results depend on the processing

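The alternatives were run for the 9 genes, for their counts of calls and for the named genes of the further lists. Of 2322 values of the 9 genes under alternatives, 2238 kept their direction or stayed uncalled on the same side of the threshold, 50 lost a call, 29 gained a call and 5 turned while called. Another 82 of the 2238 changed sign while uncalled both ways, all of them with a deposited difference of at most 0.218. With 2 mice per group, a lone mouse in a group is assumed to vary like the other groups. Counts of calls with a library left out are given below without a share of all genes. Those counts are therefore not a result about these genes.

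The turned values all came from equal sums over the diets, where *Pgls* was 0.24, *Rpe* 0.26, *Taldo1* 0.20, *H6pd* 0.0855 and *Idh1* 0.0799. Equal sums also changed the calls among the 9 from 4 to 5 with sucrose in control (*Idh1* gained), 1 to 2 with fructose in control, 1 to 2 with fructose in MED13-LKO, 0 to 2 between genotypes when fasted, 1 to 0 with sucrose, 2 to 4 over the diets and 4 to 5 for feeding over both genotypes (*G6pdx* gained). Over all genes, equal sums gave 866 calls with fructose in control and 879 with fructose in MED13-LKO, against 692 and 807. Without a filter, sucrose in MED13-LKO gave 1 call in place of 2, with 640 over all genes against 706. Without the mean trend, sucrose and fructose in MED13-LKO and the genotypes with sucrose gave 0 and the genotypes over the diets 1. All genes called were then 439, 459, 467 and 2769, against 706, 807, 746 and 3127. Fits of the compared groups gave 1 in place of 4 with sucrose in control, 0 with fructose in control, 2 with fructose in MED13-LKO and 0 between genotypes with sucrose. All genes called there were 698, 27, 414 and 561, against 1060, 692, 807 and 746. The cause was not tested beyond what each setting changes.

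Leaving out each library in turn gave 1 to 4 calls with sucrose and 0 to 3 with fructose in control, 0 to 2 with either sugar in MED13-LKO, 4 to 5 for feeding over both genotypes, 0 to 1 between genotypes when fasted, 0 to 2 with sucrose, 0 to 0 with fructose and 1 to 4 over the diets. It gave 0 to 0 between the sugars in either genotype, 0 to 1 for the sucrose interaction and 0 to 0 for the fructose interaction.

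The replicate numbers come from the titles, and mice of equal number did not deviate together, with correlations between −0.142 and 0.0782 over 15 pairs of groups, so the numbers do not pair the mice. With the number as a replicate block, sucrose in MED13-LKO gave 1 call, since that of *Rpia* was lost (limma adjusted p = 0.0507), and the genotypes with sucrose 0, since that of *Idh1* was lost (0.052), and no other count of calls among the 9 changed. Over all genes, 598 and 644 were called in these comparisons, against 706 and 746 without the block.

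Over all genes, the calls between genotypes over the diets ranged from 2769 to 7514 across the settings other than leaving out a library, against 3127, and with equal sums they were 4147 when fasted, 2242 with sucrose and 3465 with fructose. Depth limits *Rpia* and *G6pdx* most, at counting errors up to 18.0% and 12.2%.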
